A study of Mus musculus with 8 samples.

Results

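The genes described here are 4 genes of Schwann cells, the glia of peripheral nerves: Prx, Pmp22, Pmp2 and Ngfr. They were taken from a list of Schwann cell genes, with earlier results of these data known. The other gene lists used below were also chosen with those results known. The 4 genes serve as a measure of nerve root tissue in dissected spinal cord. Each was to be read from the probe set that the platform annotation maps to that symbol alone. Pmp22, Pmp2 and Ngfr each had 1 such probe set (10376950, 10497253 and 10390175), and these 3 were among the 16026 genes tested. No probe set is listed for Prx in the annotation used here, so it was not analysed. Cervical spinal cord RNA, by its label, of male C57BL/6 mice that were 6 weeks old at the start was measured on 8 whole-transcript arrays. In 3 groups the mice were injected with MPTP, a toxin to dopamine neurons that gives mice a parkinsonian lesion, at 20 mg/kg every 24 h for 4 weeks. The acupoint group was needled in addition at GB34 and LR3 (leg and foot) in 14 sessions at 48 h intervals, the non-acupoint group was needled at both hips on the same schedule, and the MPTP group was not needled. The control group was injected with saline. Each group had 2 arrays, whose titles name mouse 1 and mouse 2, called replicate 1 and replicate 2 here. The protocol gives 9 mice each for the control and MPTP groups and RNA extraction from 2 per group. The titles thus name 1 mouse for each array, and the labels do not mention pooling of RNA. With 2 arrays per group, p-values measure no more than how far these arrays differ, and part of that may be technical.

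Peripheral axons are wrapped by Schwann cells and central axons by oligodendrocytes, and the change from one to the other lies where spinal nerve roots meet the cord. Peripheral myelin is kept in its compact form by proteins that central myelin lacks or holds at low levels. PMP22 is a membrane protein of compact peripheral myelin whose duplication causes a form of Charcot-Marie-Tooth neuropathy in humans, and it is also made by fibroblasts and other cells. PMP2, also called FABP8, is a fatty acid binding protein of the inner face of myelin membranes. NGFR, the p75 neurotrophin receptor, is made by immature, non-myelinating and injured Schwann cells and by some neurons. Periaxin, the product of Prx, links the Schwann cell membrane to the basal lamina through dystroglycan and DRP2.

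Promoters are shown for Pmp22 and Ngfr because the first varied widely between the arrays and the second did not. RefSeq windows (GRCm38.p6) of 300 bases, 250 before and 50 after a transcript start, were held for Pmp22 (4 starts), Ngfr (1) and Prx (1). None was held for Pmp2. The search covered both strands for GCGNGGG, a core of sites bound by EGR factors such as EGR2, the regulator of peripheral myelination, for ACAANG, a core of SOX sites, and for TATAAA. Capitals mark every match, and the sequences run 5′ to 3′.
Pmp22, most upstream start, chr11:63128732-63129031, plus strand: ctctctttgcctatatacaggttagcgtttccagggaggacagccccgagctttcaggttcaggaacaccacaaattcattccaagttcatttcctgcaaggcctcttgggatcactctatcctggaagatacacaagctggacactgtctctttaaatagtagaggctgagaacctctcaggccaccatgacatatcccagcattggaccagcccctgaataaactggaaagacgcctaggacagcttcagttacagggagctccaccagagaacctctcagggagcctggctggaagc
Pmp22, most downstream start, chr11:63132553-63132852, plus strand: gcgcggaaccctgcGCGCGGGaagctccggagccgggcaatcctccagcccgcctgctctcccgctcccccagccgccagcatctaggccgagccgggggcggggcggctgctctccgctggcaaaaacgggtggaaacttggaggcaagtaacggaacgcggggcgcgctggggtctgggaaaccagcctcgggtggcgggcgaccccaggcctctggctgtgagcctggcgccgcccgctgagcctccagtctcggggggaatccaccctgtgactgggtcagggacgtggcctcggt
Ngfr, chr11:95587649-95587948, minus strand: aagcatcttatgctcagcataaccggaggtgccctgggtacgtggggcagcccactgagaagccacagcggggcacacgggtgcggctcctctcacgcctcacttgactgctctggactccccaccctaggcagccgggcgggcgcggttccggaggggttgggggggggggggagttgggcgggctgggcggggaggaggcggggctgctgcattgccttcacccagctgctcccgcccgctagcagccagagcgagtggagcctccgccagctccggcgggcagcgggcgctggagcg
The most downstream Pmp22 window held 1 match to GCGNGGG, which is present in 23.2% of the 32817 windows searched, and the window of the neighbouring start overlaps it and holds the same bases. The most upstream Pmp22 window, the next Pmp22 window downstream and the Ngfr window held no match to any of the 3 motifs. The Prx window, not shown, held 1 match to GCGNGGG and none to the others. ACAANG was found in 41.3% of all windows and TATAAA in 13.6%. The G and C content was 72.3% in the downstream Pmp22 window, 71.7% in the Ngfr window and 50.7% in the upstream Pmp22 window. A match describes the letters in these windows and is no evidence of binding, and the single Pmp22 probe set does not tell transcripts of different starts apart.

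The arrays were similar over all genes, with correlations between arrays of 0.975 to 0.996 across the 16026 genes tested. Central myelin genes were measured on all 8 arrays, with a list mean of 10.59 to 10.95 on the log2 scale over 15 genes. The cholinergic transporter gene Slc5a7 was measured at 8.70 to 9.80, so spinal cord transcripts were present throughout. Libraries stood apart in markers of other tissues. Skeletal muscle markers (15 genes) averaged 6.99 on acupoint replicate 1, 7.48 on control replicate 1 and 8.94 on control replicate 2, with the other 5 arrays at 5.56 to 5.94, and adipose markers (9 genes) averaged 7.64 on non-acupoint replicate 2 against 5.59 to 5.99 elsewhere. All values below are log2 RMA signals, where 1 unit is a doubling, and the number of arrays limits the precision.

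Pmp22 differed mainly between arrays of the same group. Its signal was 12.86 and 11.03 on the acupoint arrays, 11.11 and 11.08 on the non-acupoint arrays, 11.15 and 11.95 on the MPTP arrays, and 12.47 and 10.62 on the control arrays, replicate 1 first. It was highest on acupoint replicate 1, then on control replicate 1 and MPTP replicate 2, and the other 5 arrays lay within 10.62 to 11.15. The 2 control arrays differed 3.60-fold, the 2 acupoint arrays 3.57-fold and the 2 MPTP arrays 1.74-fold, while the 2 non-acupoint arrays differed 1.02-fold. The group means were 11.94 ± 1.30 with acupoint needling, 11.09 ± 0.023 with non-acupoint needling, 11.55 ± 0.56 after MPTP alone and 11.54 ± 1.31 in controls (SD, n = 2 each).

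Pmp2 showed the same 3 arrays on top over a wider range. Its signal was 7.07 and 3.95 on the acupoint arrays, 4.00 and 4.94 on the non-acupoint arrays, 3.81 and 6.40 on the MPTP arrays, and 8.06 and 3.73 on the control arrays. Control replicate 1 was highest and control replicate 2 lowest, a 20.1-fold difference between arrays of 1 group. Acupoint replicate 1 exceeded acupoint replicate 2 8.70-fold and MPTP replicate 2 exceeded MPTP replicate 1 6.00-fold. On 4 arrays, 1 in each group, Pmp2 was below 4.30, the mean signal required of a probe set, and it passed that filter with a mean of 5.24 through the arrays on which it was high. Folds against those 4 arrays may be understated, since signals this low change little with the amount of RNA. The group means were 5.51 ± 2.21 with acupoint needling, 4.47 ± 0.66 with non-acupoint needling, 5.11 ± 1.83 after MPTP and 5.89 ± 3.06 in controls (SD, n = 2 each).

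Ngfr varied little. Its signal was 6.15 and 5.95 on the acupoint arrays, 6.05 and 5.98 on the non-acupoint arrays, 6.10 and 6.04 on the MPTP arrays, and 6.34 and 5.84 on the control arrays. Control replicate 1 and acupoint replicate 1 were again the highest and control replicate 2 the lowest, but the whole range was 0.50, a 1.42-fold difference, close to the median range of 0.46 over all genes tested. MPTP replicate 2, high in Pmp22 and Pmp2, was 0.057 below MPTP replicate 1 in Ngfr. Ngfr thus shared the extreme arrays with the other 2 genes without sharing the size of the differences. Control replicate 2 was the lowest array for 4363 of 16026 genes, more than any other array.

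**Figure D1:**
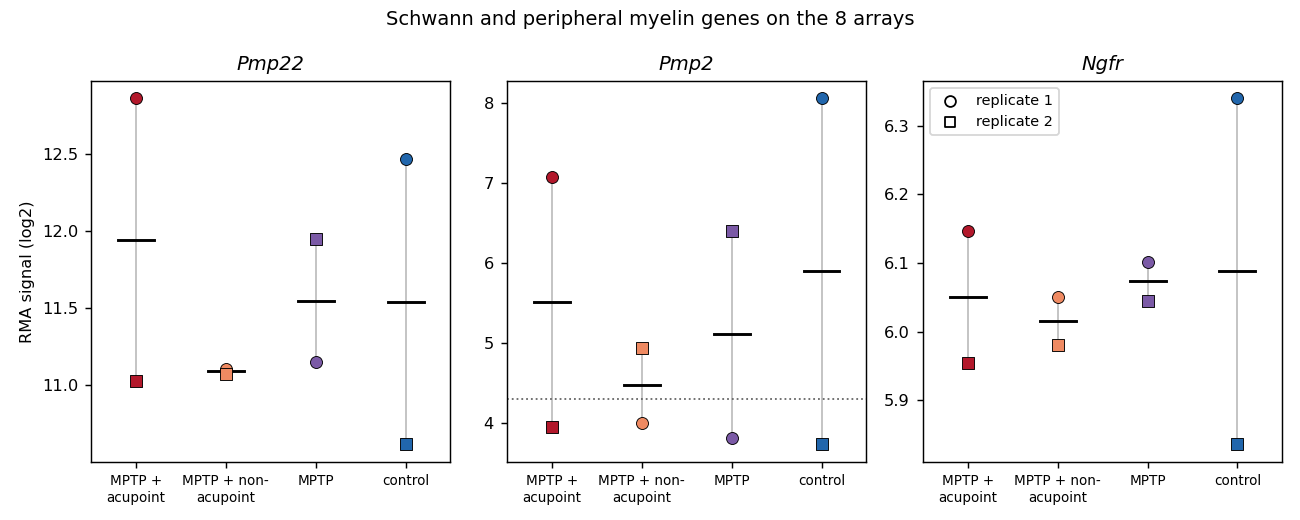
Signal of Pmp22, Pmp2 and Ngfr on each array (log2 RMA signal, with a separate y axis for each gene that does not start at 0), by group. Circles are replicate 1, squares replicate 2, black bars the mean of 2 arrays, and the dotted line in the Pmp2 panel the filter value of 4.30. Control replicate 1 and acupoint replicate 1 are the 2 highest arrays for each gene, and control replicate 2 is the lowest.

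The spread within groups was large against that of other genes. The residual standard deviation, the spread of arrays around their group mean in the model fitted to all 8 arrays, was 2.12 for Pmp2, second among the 16026 genes. The gene above it was Ogn, which encodes osteoglycin, a small proteoglycan of connective tissue, at 2.37. Pmp22 had a residual standard deviation of 0.96, and 36 genes had a larger one. For Ngfr it was 0.19, larger than in 82.1% of genes, and the median over all genes was 0.12. Differences between the 4 group means held 16.4% of the variance of Pmp22, 11.0% of that of Pmp2 and 3.84% of that of Ngfr, against a median of 58.3% over all genes tested. The 3 highest arrays and the lowest array of Pmp22 and of Pmp2 were the same ones after a further quantile normalization, after cyclic loess and after median centring of the arrays, and Pmp2 remained second in residual standard deviation under all 3. For Ngfr, control replicate 1 stayed highest or among the 3 highest arrays and control replicate 2 lowest, while acupoint replicate 1 left the 3 highest with arrays centred on their medians.

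**Figure D2:**
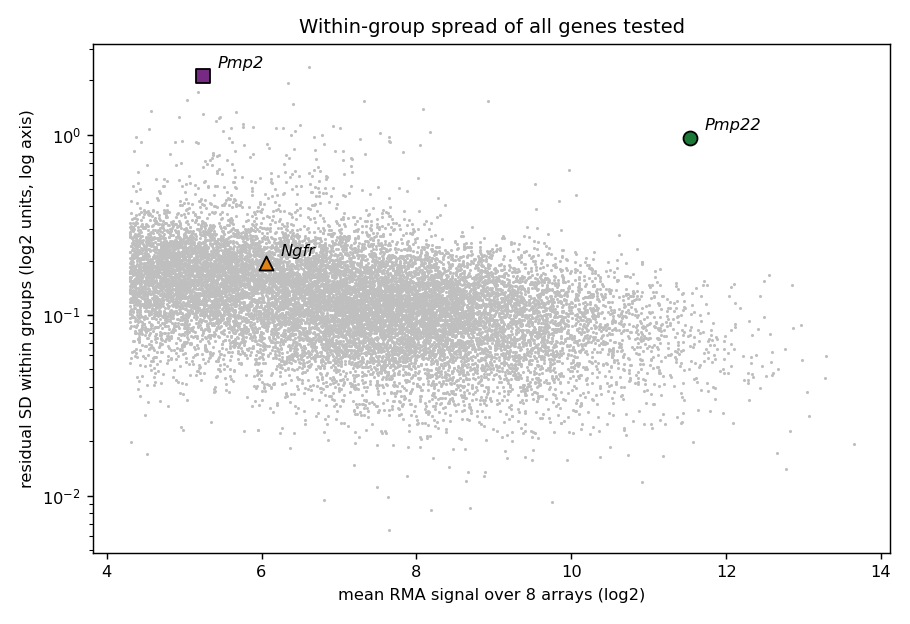
Residual standard deviation within groups (log2 units, log axis) against mean RMA signal over the 8 arrays (log2) for each of the 16026 genes tested (grey points), with Pmp2, Pmp22 and Ngfr marked. Pmp2 (2.12) and Pmp22 (0.96) lie far above genes of like signal, and Ngfr (0.19) lies within the cloud.

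The comparison of MPTP with saline asked whether the toxin was accompanied by a change in these genes. None of the 3 passed an adjusted p of 0.05 in limma and none had an unadjusted p under 0.05, whereas 16.8% of all genes passed and 31.6% had such an unadjusted p. Pmp22 averaged 11.55 after MPTP and 11.54 in controls, a log2 difference of 0.0083 (SE 0.63, 95% interval -1.42 to 1.43, limma adjusted p = 0.995). Pmp2 averaged 5.11 after MPTP and 5.89 in controls, a difference of -0.79 (SE 1.39, interval -3.92 to 2.35, limma adjusted p = 0.755). Ngfr averaged 6.07 after MPTP and 6.09 in controls, a difference of -0.014 (SE 0.17, interval -0.39 to 0.36, limma adjusted p = 0.968). The arrays of the 2 groups overlapped for all 3 genes, while they did not overlap for 64.0% of all genes. For Pmp22 and Pmp2 the intervals reach beyond a doubling in either direction, so changes of that size were not detectable with these arrays, and for Ngfr the interval lies between 0.763-fold and 1.28-fold.

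Setting all 6 MPTP-injected arrays against the 2 control arrays gave the same picture. None of the 3 genes passed in limma and none had an unadjusted p under 0.05, against 25.2% and 37.2% of all genes. Pmp22 averaged 11.53 over the 3 MPTP groups and 11.54 in controls (log2 difference -0.013, SE 0.52, limma adjusted p = 0.991), Pmp2 5.03 against 5.89 (-0.87, SE 1.14, limma adjusted p = 0.628) and Ngfr 6.05 against 6.09 (-0.041, SE 0.14, limma adjusted p = 0.861). The arrays overlapped for all 3, and did not for 36.9% of all genes. This comparison shares its control arrays with the one before. The direction depended on which control array was kept. Without control replicate 1 the difference was 0.91 for Pmp22 and 1.30 for Pmp2, and without control replicate 2 it was -0.94 and -3.03, none of them past the threshold in limma (adjusted p = 0.138 to 0.493).

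Leaving out 2 arrays at once moved the differences in opposite directions, according to which control array remained. Without control replicate 2 and acupoint replicate 1, on which muscle markers were high, the only control array left was control replicate 1. It was the array highest in Pmp2, and muscle markers averaged 7.48 on it, against 6.99 on acupoint replicate 1. Pmp22 was then lower after MPTP than in the control by 0.92, and Pmp2 was lower by 2.95. Without control replicate 1 and acupoint replicate 1, the 2 arrays highest in Pmp22, Pmp22 was instead higher after MPTP by 0.93, and Pmp2 was at 1.38. This second choice was made after seeing the data and leaves as control the array lowest in both genes. Each of these fits leaves 1 control array, which is assumed to vary like the arrays of the other groups. That array lay above or below both MPTP arrays in Pmp22 and Pmp2, so the direction was set by the arrays kept. No call is read from these fits.

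Acupoint needling was set against MPTP alone to ask whether needles at GB34 and LR3 moved these genes in MPTP-injected mice. None of the 3 passed, and neither did any other gene (0% of 16026 in limma, with 1.25% at an unadjusted p under 0.05). Pmp22 averaged 11.94 with acupoint needling and 11.55 after MPTP alone (log2 difference 0.39, SE 0.63, interval -1.03 to 1.82), and Pmp2 averaged 5.51 and 5.11 (0.40, SE 1.39, interval -2.73 to 3.54). Ngfr averaged 6.05 with acupoint needling and 6.07 after MPTP alone (-0.024, SE 0.17, interval -0.40 to 0.35). The limma adjusted p was 1.00 for each gene. The arrays overlapped for all 3 genes, and did not for 24.3% of all genes. The signs of Pmp22 and Pmp2 depended on single arrays of both groups, at -0.52 and -1.16 without acupoint replicate 1 and at -0.0061 and -0.89 without MPTP replicate 1.

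The comparison of hip needling with MPTP alone asked the same of needles placed away from these acupoints. Again none of the 3 passed and no gene did (0% of 16026, with 1.70% at an unadjusted p under 0.05). Pmp22 averaged 11.09 with non-acupoint needling and 11.55 after MPTP alone (log2 difference -0.46, SE 0.63, interval -1.88 to 0.97), Pmp2 4.47 and 5.11 (-0.64, SE 1.39, interval -3.77 to 2.50) and Ngfr 6.02 and 6.07 (-0.058, SE 0.17, interval -0.43 to 0.32), each at a limma adjusted p of 1.00. The arrays did not overlap for Pmp22, with hip needling at 11.11 and 11.08 and MPTP alone at 11.15 and 11.95, as was the case for 36.3% of all genes. Without MPTP replicate 2 the difference was -0.059 for Pmp22 and 0.66 for Pmp2, and without MPTP replicate 1 it was -0.86 and -1.93. Between the closest arrays of the 2 groups the gap was about as small as that between the 2 non-acupoint arrays.

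The comparison of acupoint with hip needling asked whether the site of needling mattered. None of the 3 genes passed and no gene did (0% of 16026, with 3.77% at an unadjusted p under 0.05). Pmp22 averaged 11.94 with acupoint and 11.09 with non-acupoint needling (log2 difference 0.85, SE 0.63, interval -0.57 to 2.28, limma adjusted p = 0.936), Pmp2 5.51 and 4.47 (1.04, SE 1.39, interval -2.10 to 4.17, limma adjusted p = 0.937) and Ngfr 6.05 and 6.02 (0.034, SE 0.17, interval -0.34 to 0.41, limma adjusted p = 0.982). The arrays overlapped for all 3, and did not for 28.3% of all genes. Without acupoint replicate 1 these differences were -0.066, -0.52 and -0.062. The limma F-test over the 4 groups, which called 10.8% of all genes, called none of the 3 (adjusted p = 0.804 for Pmp22, 0.887 for Pmp2 and 0.987 for Ngfr). In none of the comparisons was an unadjusted p of a member under 0.05, and the smallest was 0.210, for Pmp22 between the needled groups.

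**Figure D3:**
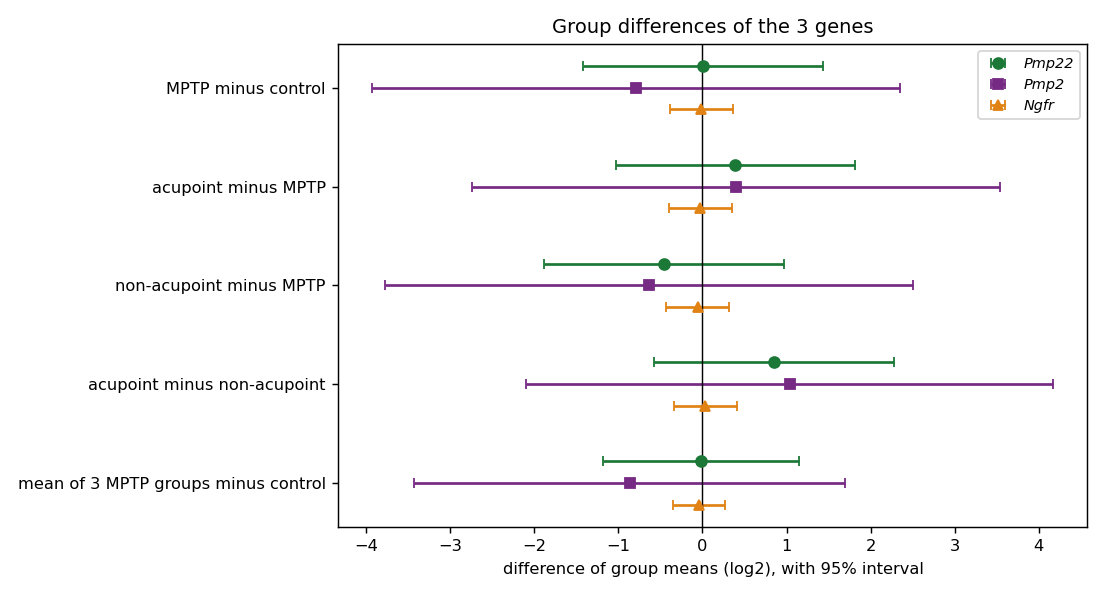
Differences of group means (log2, x axis) for Pmp22, Pmp2 and Ngfr in the 5 comparisons (y axis), as points with 95% intervals from the limma fit to 8 arrays. Every interval includes 0. Those of Pmp2 are the widest, from -3.92 to 2.35 for MPTP minus control, and those of Ngfr the narrowest, from -0.39 to 0.36.

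Other genes of Schwann cells had the same arrays on top. Of the further genes on the Schwann list 24 were tested. Acupoint replicate 1 and control replicate 1 were the 2 highest arrays for 15 of the 24, against 8.26% of all genes tested, and the 3 highest arrays, in any order, were those of Pmp22 for 11 of the 24, against 3.12% of all genes. The list mean was 7.61 and 6.80 on the acupoint arrays, 6.87 and 6.89 on the non-acupoint arrays, 6.85 and 7.14 on the MPTP arrays, and 7.63 and 6.75 on the control arrays. The 2 non-acupoint arrays lay close together on this list, as they did in Pmp22.

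The widest ranges were those of genes of myelinating and non-myelinating Schwann cells. Cldn19, a tight junction protein of Schwann cells, was measured at 8.39 and 5.34 on the acupoint arrays, 5.31 and 5.70 on the non-acupoint arrays, 5.45 and 7.01 on the MPTP arrays, and 8.22 and 5.86 on the control arrays. Scn7a, a sodium channel gene of non-myelinating Schwann cells, ranged over 2.49, and Mlip and Plekha4 over 2.46 and 2.36. Drp2, the partner of periaxin, was at 9.31 and 7.58 on the acupoint arrays, 7.55 and 7.53 on the non-acupoint arrays, 7.58 and 8.37 on the MPTP arrays, and 9.84 and 7.60 on the control arrays. In both genes acupoint replicate 1, control replicate 1 and MPTP replicate 2 stood above the remaining 5 arrays. Ncmap, which encodes a protein of noncompact myelin, ranged over 2.05, Egr2 over 1.66, the nodal protein gene Gldn over 1.52 and the hedgehog ligand gene Dhh over 0.97. In all, 9 of the 24 had a range of at least 1, against 4.14% of all genes. In these bulk samples fewer cells of a type and less RNA per cell cannot be told apart.

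In MPTP minus control 1 of the 24 genes rose and none fell in limma, against 13.7% higher and 3.10% lower among all genes, with a list median of -0.15 against 0.061 over all genes. The gene was Cdh19, a cadherin of the Schwann cell lineage, with 7.93 and 7.84 on the MPTP arrays against 7.23 and 6.65 on the control arrays (log2 difference 0.95, SE 0.17, limma adjusted p = 0.00861). Its highest array was non-acupoint replicate 1, at 8.28, so it did not share the array pattern of Pmp22. Over all MPTP-injected arrays 2 of the 24 rose and none fell, against 19.9% higher and 5.35% lower among all genes. They were Cdh19 (1.04, SE 0.14, limma adjusted p = 0.00151) and the adhesion gene Cadm4 (0.33, SE 0.09, limma adjusted p = 0.0265). None of the 24 passed in the comparisons among the MPTP groups, in which no gene passed. Drp2 and Cldn19 were at -0.75 (SE 0.68) and -0.81 (SE 0.97) in MPTP minus control and did not pass.

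**Figure D4:**
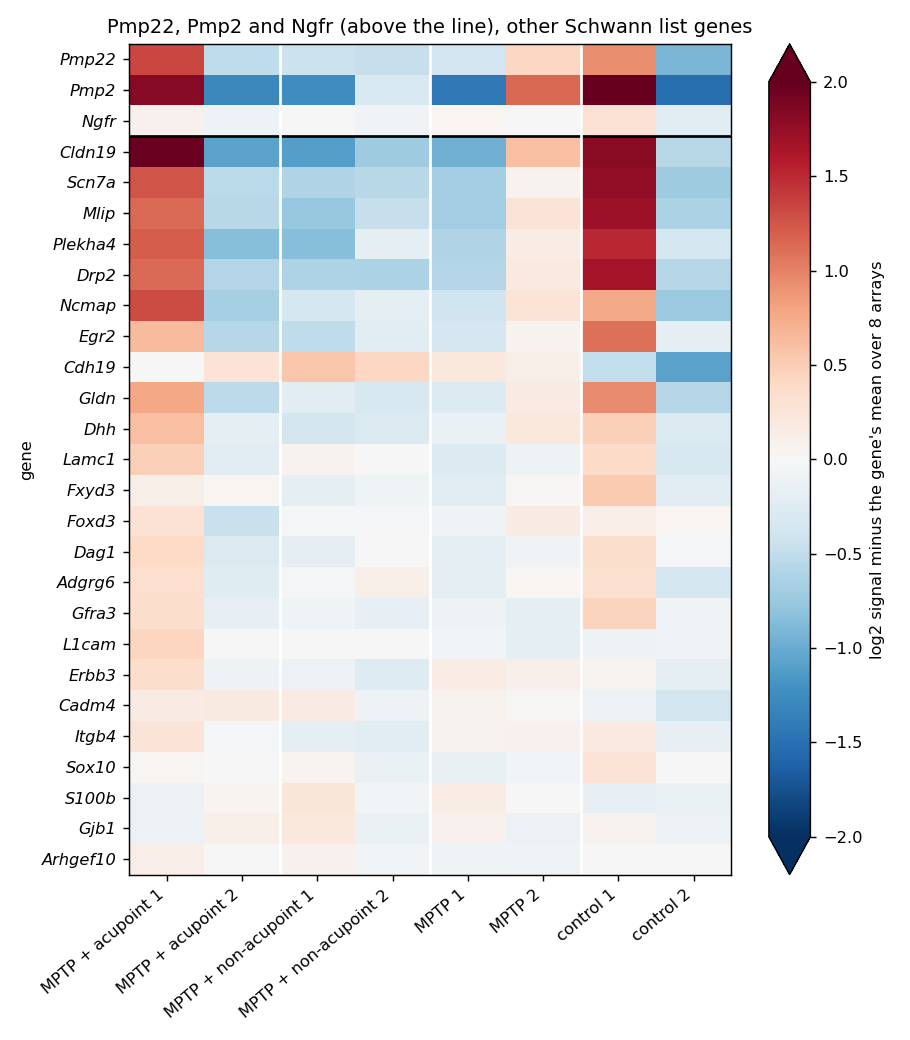
Signal of Pmp22, Pmp2 and Ngfr (above the black line) and of 24 other Schwann list genes (rows, ordered by range) on the 8 arrays (columns), as log2 signal minus the gene's mean over 8 arrays. The colour scale ends at 2 units, which Pmp2 exceeds on control replicate 1. Acupoint replicate 1 and control replicate 1 are red for Pmp22, Pmp2, Cldn19, Scn7a, Drp2 and most genes above Lamc1, with Cdh19 as an exception.

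Genes of connective tissue moved with the Schwann genes. On the list of 17 meningeal and fibroblast genes, acupoint replicate 1, control replicate 1 and MPTP replicate 2 were the 3 highest arrays for 12, against 3.12% of all genes. The list mean was 7.73 and 6.16 on the acupoint arrays, 6.45 and 6.86 on the non-acupoint arrays, 6.27 and 7.23 on the MPTP arrays, and 7.61 and 6.44 on the control arrays. Ogn was at 9.03 and 4.66 on the acupoint arrays, 5.19 and 6.71 on the non-acupoint arrays, 4.75 and 7.86 on the MPTP arrays, and 9.19 and 5.48 on the control arrays. Like Pmp2, and unlike Pmp22, it was higher on non-acupoint replicate 2 than on non-acupoint replicate 1. The proteoglycan genes Dcn and Lum ranged over 2.82 and 2.73 and the collagen gene Col1a1 over 2.36. Fibroblasts also express Pmp22, and the part of connective tissue in its differences was not tested. On a list of 6 perineurial genes 3 had the same 3 highest arrays, Cldn1, Itgb4 and Lypd2, over ranges of 0.48 to 0.88. Of these, Itgb4 is also on the Schwann list and was counted there. In MPTP minus control 1 of the 17 and 1 of the 6 were called, both higher, beside 13.7% higher among all genes. They were the growth factor receptor gene Pdgfra, which precursors of oligodendrocytes also express (0.46, limma adjusted p = 0.0189), and the glucose transporter gene Slc2a1, which brain endothelium also expresses (0.86, limma adjusted p = 0.00117).

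Skeletal muscle and adipose markers had other arrays on top. All 15 skeletal muscle markers were highest on control replicate 2, against 16.0% of all genes. That array was lowest in Pmp22, Pmp2 and Ngfr, as it was for 4363 of 16026 genes. The muscle list mean was next highest on control replicate 1 and acupoint replicate 1. In MPTP minus control 11 of these 15 fell and none rose, against 3.10% lower and 13.7% higher among all genes. Of the adipose markers 8 of 9 were highest on non-acupoint replicate 2, against 7.53% of all genes. None of the 9 adipose, 15 central myelin and 9 sensory ganglion genes had the 3 highest arrays of Pmp22, which is near the 3.12% of all genes. The largest range among central myelin genes was 0.87, in Opalin, a gene of mature oligodendrocytes. In MPTP minus control 6 of these 15 rose and none fell, against 13.7% higher and 3.10% lower among all genes, among them the myelin-associated glycoprotein gene Mag (0.57, SE 0.08, limma adjusted p = 0.00410), which was at 11.26 and 11.18 on the MPTP arrays against 10.64 and 10.65 on the control arrays. The control arrays, far apart in Pmp22 and Pmp2, were thus alike in Mag. Of the sensory ganglion genes 5 of 9 were highest on control replicate 1, against 12.3% of all genes. The sensory sodium channel gene Scn10a was at 5.96 there, against 4.19 to 4.81 on the other 7 arrays. Of 9 endothelial genes 5 were highest on acupoint replicate 1, the highest array of Pmp22, against 17.6% of all genes. Motor neuron genes (10) had their lowest list mean on control replicate 1, at 8.61, followed by control replicate 2 at 8.84, with 9.09 to 9.28 elsewhere, and 7 of them rose in MPTP minus control, against 13.7% of all genes. The part of unequal amounts of cord, root, membrane and muscle in the samples was not tested.

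**Figure D5:**
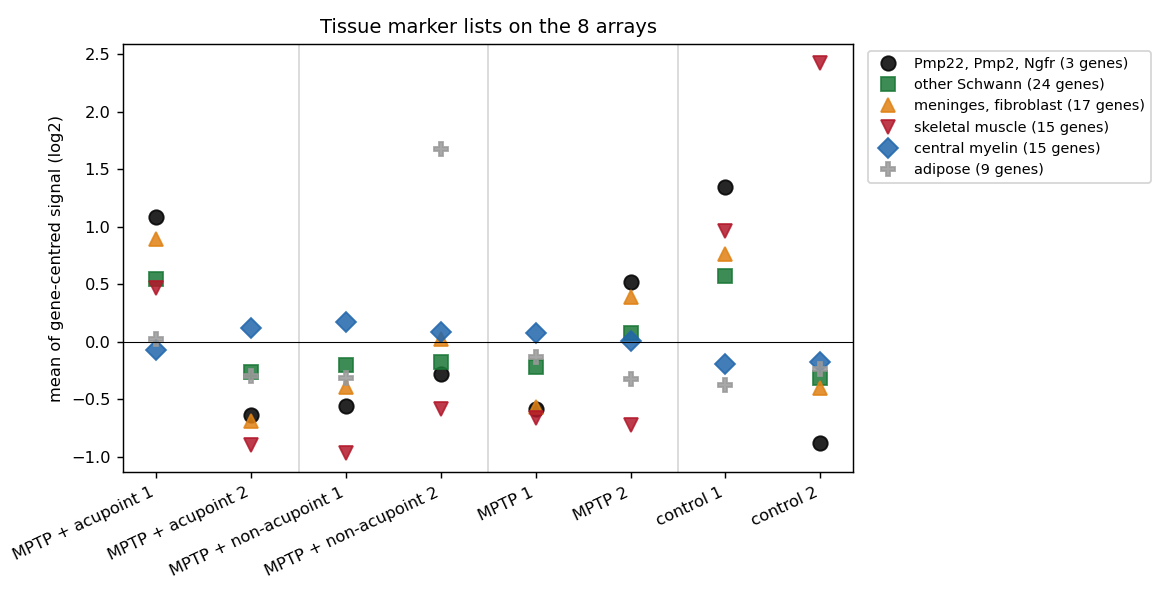
Mean over the genes of a list of the log2 signal minus each gene's mean over 8 arrays (y axis), for 6 lists on the 8 arrays (x axis). The 3 Schwann genes Pmp22, Pmp2 and Ngfr (1.08 on acupoint replicate 1, 1.34 on control replicate 1), the other Schwann genes and the meningeal and fibroblast genes are high on the same arrays, while muscle markers are highest on control replicate 2 (2.42) and adipose markers on non-acupoint replicate 2 (1.68).

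A search over all genes tested gave those with the pattern most like each gene, by the root mean square difference between gene-centred log2 signals over the 8 arrays. For Pmp22, whose own standard deviation over the arrays was 0.80, the closest were Col1a2, a collagen chain gene (0.13), Ncmap (0.16), Arhgap19 (0.23), the laminin gene Lamb1 (0.24) and Gas2l3 (0.24). For Pmp2, with a standard deviation of 1.70, they were the microfibril gene Mfap5 (0.41), Ogn (0.41), Cldn19 (0.58), Dcn (0.59) and Fam178b (0.61). Schwann and connective tissue genes thus stood side by side among the closest. For Ngfr, with a standard deviation of 0.15, they were Slamf9 (0.042), Reep6 (0.045), Tmem35b (0.055), Ptprcap (0.056) and Notum (0.059), none of them on a list used here. For the mean of the 3 gene-centred profiles they were Arhgap19 (0.16), Mlip (0.21), Them5 (0.21), the collagen cross-linking enzyme gene Lox (0.22) and Col1a2 (0.22). Ranked by correlation over the 8 arrays instead, the closest to Pmp22 were the fibroblast growth factor gene Fgf7, Col1a2, the Wnt receptor gene Fzd2, Lamb1 and Nr2f2, those to Pmp2 were Prr15, the cadherin gene Cdh1, the chemokine gene Ccl11, Ogn and Arhgap19, and those to Ngfr were Slamf9, Stard13, Prrg4, Arl11 and Lpar3. For the mean profile they were Ccl11, Smoc2, Arhgap19, Cdh1 and Gldn. These genes are the extremes of 16023, over 8 arrays on which marker lists of several tissues differed. The part of tissue amounts in this likeness was not tested.

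Relatives of the 3 genes varied less or had other arrays on top. In the family of PMP22 the epithelial membrane protein gene Emp2 ranged over 0.91, Emp1 over 0.65 and Emp3 over 0.57, against 2.24 for Pmp22. Emp1 had the same 3 highest arrays. Tmem47 rose after MPTP by 0.81 (SE 0.12, limma adjusted p = 0.00461). Of the 7 fatty acid and retinoid binding protein genes tested beside Pmp2, none passed in any of the comparisons. Among all genes 16.8% passed in MPTP minus control and 25.2% in all MPTP groups minus control. No gene passed in the other comparisons, so this count says little about the family. Crabp2, also counted on the meningeal and fibroblast list, had the same 3 highest arrays as Pmp2, over a range of 0.91. The brain fatty acid binding protein gene Fabp7 was lowest on acupoint replicate 1 (7.33, against 7.84 to 8.29 elsewhere), and Fabp4, the adipocyte member, was at 9.05 on non-acupoint replicate 2 and at 4.25 to 4.98 elsewhere. Of 9 genes of neurotrophins and their receptors, the ligand and co-receptor system of NGFR, 2 rose and 1 fell after MPTP, beside 13.7% higher and 3.10% lower among all genes. The BDNF receptor gene Ntrk2 was at 0.41 (SE 0.08, limma adjusted p = 0.0106), the sorting receptor gene Sort1 at 0.24 (SE 0.07, limma adjusted p = 0.0393) and the NT-3 receptor gene Ntrk3 at -0.42 (SE 0.12, limma adjusted p = 0.0476).

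Genes of the repair state that Schwann cells take on after nerve injury were read from a list of 15 tested, many of which cord cells also express. None had the 3 highest arrays of Pmp22, which 3.12% of all genes had, so that this count is near that of all genes. In MPTP minus control 3 of the 15 rose and none fell, a share near the 13.7% higher and 3.10% lower among all genes. The 3 were the transcription factor gene Sox2 (0.70, SE 0.13), the adhesion gene Ncam1 (0.65, SE 0.06) and the glial filament gene Gfap (0.38, SE 0.11), with limma adjusted p = 0.00959 for Sox2, 0.00155 for Ncam1 and 0.0485 for Gfap. Over all MPTP-injected arrays these 3 and a further 2 of the 15 rose and none fell, against 19.9% higher and 5.35% lower among all genes. They were the oligodendrocyte factor gene Olig1 (0.22, SE 0.06, limma adjusted p = 0.0328) and Sprr1a, which injured sensory neurons induce (1.06, SE 0.15, limma adjusted p = 0.00170). Sprr1a was at 6.52 and 6.19 on the acupoint arrays, 6.67 and 6.46 on the non-acupoint arrays, 5.65 and 5.22 on the MPTP arrays, and 5.16 and 4.97 on the control arrays. The pooled value was thus larger than that of MPTP alone minus control, 0.37 (SE 0.18, limma adjusted p = 0.195). Acupoint minus MPTP was 0.92 and non-acupoint minus MPTP 1.13 (SE 0.18 each), neither past the threshold in limma (adjusted p = 1.00). Gap43, a growth-associated gene, ranged over 0.21, and the transcription factor gene Jun was at 0.020 in MPTP minus control (SE 0.09) and did not pass.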

How the data were processed

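The deposited values are log2 signals of 35557 probe sets on 8 arrays, which the authors made with Affymetrix Expression Console and RMA per the submitters' processing notes, with no versions given. RMA corrects background, normalizes between arrays and summarises probes, and array medians still ran from 5.59 to 5.80. That the log has base 2 was inferred from the span of the values. Scan times were not used here and batches were not tested. The platform annotation gave 1 symbol for 21789 probe sets. Those with a mean above the 30th percentile (4.30) were kept, the probe set with the highest mean stood for a gene, and 16026 genes were tested. No coordinates of probe sets are given.

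A model with 1 mean per group was fitted with limma 3.58.1 (R 4.3.3, eBayes with an intensity trend, 4 residual and 5.34 prior degrees of freedom), with two-sided p-values and Benjamini-Hochberg adjustment over all genes within each of 5 contrasts, and an F-test over 4 groups. With 2 arrays against 2 the smallest exact permutation p is 0.333. The fit was tested on simulated data. The genes, lists, tests and alternatives were chosen with earlier results of these data known. Of each list, genes were named by range (up to 4) or for passing the threshold, and the 5 most alike genes by each measure of likeness. Genes outside that rule (Drp2, Ncmap, Egr2, Gldn, Dhh, Itgb4, Gap43, Jun and Emp3) were named for their role or after their values were seen. Same-numbered arrays did not deviate from their group means together (correlations of -0.33 to 0.17 over 6 pairs of groups), so replicate numbers were not taken as pairs. Alternatives were other scalings, filters, moderation, weights and probe set averaging, only the groups compared, a replicate block, and arrays left out. Leaving out control replicate 1 with acupoint replicate 1 was added after seeing the data. Plots were drawn with matplotlib 3.10.9.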

Additional observations from a re-analysis of the deposited data

How the results depend on the processing

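None of the 3 genes was called in any comparison under a further quantile normalization, cyclic loess, median centring, other filters, moderation, array weights, averaged probe sets, only the groups compared, the replicate block or any single array left out (counts of 0 to 0 of 3). Pmp2 was not tested with the filter at the 50th percentile. With the replicate block, balanced over the groups, the difference of Pmp22 in MPTP minus control could not move from 0.0083. Genes called there numbered 2210 in place of 2696. Without control replicate 2 and acupoint replicate 1, all MPTP groups minus control was at -1.24 for Pmp22 and -3.55 for Pmp2. Calls changed in the 2 fits that leave out 2 arrays. They are not read here, since each fit keeps 1 control array and the share of all genes called is not given.

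Signs turned in 24 of 190 values that keep all single arrays or leave out 2, and in 22 of 120 that leave out 1 array. These counts are no measure of stability, since many of the alternatives could not change a difference. Filters, moderation, weights, averaged probe sets, the replicate block and only the groups compared returned the main value for each gene tested. So did leaving out an array of a group outside a comparison. In MPTP minus control Pmp22 was at -0.086 after quantile normalization, -0.15 after cyclic loess and -0.92 without control replicate 2 and acupoint replicate 1. Ngfr there was at 0.094, 0.017 and 0.14 after quantile normalization, cyclic loess and median centring, which moved the median of all genes to 0.10, 0.037 and 0.22. In all MPTP groups minus control Pmp22 was at 0.14 with median centring, and Ngfr at 0.064 after quantile normalization and 0.11 with median centring. Without control replicate 1 and acupoint replicate 1, Pmp2 was at 1.38 and Ngfr at 0.24 in MPTP minus control, and Pmp22, Pmp2 and Ngfr were at 0.61, 0.78 and 0.18 in all MPTP groups minus control. Without acupoint replicate 1 and either control array, acupoint minus MPTP was -0.52 for Pmp22 and -1.16 for Pmp2, and acupoint minus non-acupoint was -0.066, -0.52 and -0.062 for Pmp22, Pmp2 and Ngfr.

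With single arrays left out, MPTP minus control ran from -0.92 to 0.93 for Pmp22, -2.95 to 1.38 for Pmp2 and -0.27 to 0.24 for Ngfr. For all MPTP groups minus control the ranges were -0.94 to 0.91, -3.03 to 1.30 and -0.29 to 0.21. Acupoint minus MPTP ran from -0.52 to 1.31, -1.16 to 1.96 and -0.12 to 0.073, non-acupoint minus MPTP from -0.86 to -0.059, -1.93 to 0.66 and -0.093 to -0.023, and acupoint minus non-acupoint from -0.066 to 1.77, -0.52 to 2.60 and -0.062 to 0.13. RMA values keep no signal over background, so how far Pmp2 lies above background on its 4 low arrays is not known.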
